A study of Bos taurus with 48 samples.

Results

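In blood sampled 3 times from each of 16 calves, 36 of the 24616 annotated bovine genes in the count table were all-or-none in both breeds: clearly present in every sample of some calves and at or near 0 in every sample of others. A calf was called on for a gene when all 3 of its libraries reached 1 CPM (counts per 1000000 counts in genes), and off when all 3 stayed under 0.3 CPM. A gene was taken when at least 1 calf was on and at least 1 calf was off within Holstein-Friesian (H-F) and also within Jersey (J). These same CPM values chose the genes, so the gap between on and off calves is a description and was not tested. By the same thresholds, 12770 genes were on in at least 1 calf, 99 had an on and an off calf in H-F and 95 had both in J.

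The mRNA of whole blood was measured in 8 H-F and 8 J bull calves that were gradually weaned from milk replacer, with blood drawn at d -14 (before the milk was reduced), d 1 and d 8 relative to the end of milk feeding (d 0). Every calf was weaned, so d -14 was the only reference, and each of the 6 breed and day groups held 8 libraries of the same 8 calves. All H-F calves shared a farm of origin, whereas the J calves had been brought from other farms and were older on arrival, so breed, source farm and age cannot be told apart. The 48 libraries held 26160617 to 39017662 counts in genes, and 3 counts amounted to 0.0769 to 0.115 CPM, so an off value is a handful of reads or none.

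Blood is a mixture of red cells, platelets and many kinds of white cell, and a whole-blood mRNA level adds up what all of them carry. The level of many blood transcripts is known to be an individual's own trait, kept when the same animal is sampled again. Most transcripts with such a trait differ by degree. The genes described here are those in which the difference between animals ran from detectable to nearly nothing. In such bulk samples, fewer cells of a type and less RNA per cell cannot be told apart.

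Only 4 of the 36 genes could be given a symbol. They were EXTL1, a glycosyltransferase of the exostosin family, which builds heparan sulphate, SLC29A4, a transporter of monoamines across the plasma membrane, SLC38A11, a member of a family of amino acid transporters, and CD1A, a surface protein that presents lipids to T cells. The symbols came from the study's lists of genes that differed between the breeds. Naming thus favoured genes with a breed difference, and a breed lean of these 4 does not stand for the 36. The other 32 are given by their Ensembl identifiers, and their functions, positions and sequences were not used here. Of 47 blood and tissue marker genes listed for a check of the label, 9 were matched through the same lists and used. Summed platelet markers (GP9, PF4 and PPBP) ranged from 69.8 to 801 CPM over libraries, NK cell markers (GZMB and NCR1) from 11.6 to 50.0 CPM and the neutrophil marker CXCR2 from 22.9 to 130 CPM, so all 3 lists were present in every library. The T cell, gamma-delta T cell, monocyte, red cell and epithelial lists had no matched gene and were not checked. J calf 85 stood apart, with a mean distance to the other J calves of 2.09 (root mean square log2 difference over the 500 most different genes of each pair) against 1.82 to 1.96 for the other J calves and 1.87 to 1.98 for H-F calves. Without it, 32 of the 36 genes met the rule. The 4 that did not were EXTL1, CD1A, ENSBTAG00000003950 and ENSBTAG00000024182.

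Sorted by number of on calves, the 36 genes ranged from 1 to 7 on calves in either breed. The most frequent combination was 1 on calf in each breed, with 5 genes. There were 3 genes each with 1 H-F and 3 J calves on, with 2 H-F and 4 J calves on, and with 4 calves of each breed on, and 2 genes with 5 H-F and 6 J calves on. Only 1 gene, ENSBTAG00000004092, was on in 7 calves of each breed, and 3 genes, ENSBTAG00000004092, ENSBTAG00000001527 and ENSBTAG00000015865, had 1 off calf in each breed. More calves were on in H-F for 10 genes, more in J for 14, and as many in both for 12. A single on calf carried the gene in H-F for 11 genes and in J for 12.

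**Figure D1:**
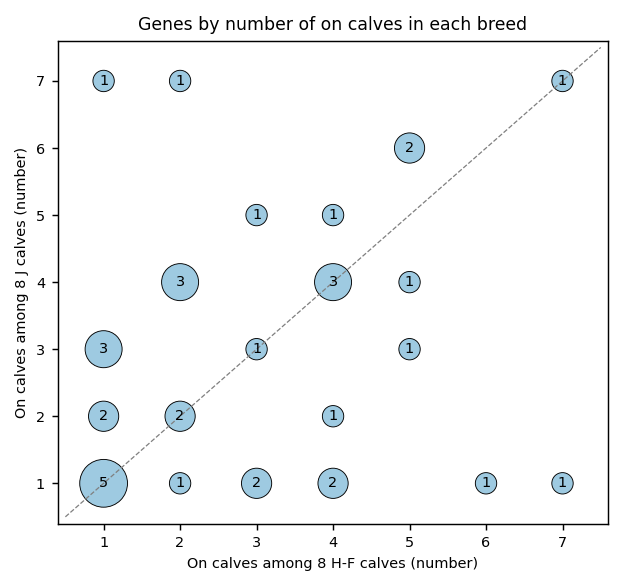
Number of on calves among the 8 H-F calves (horizontal axis) against the number among the 8 J calves (vertical axis) for the 36 genes, with the number of genes in each circle and circle area following it. The dashed line marks equal numbers, on which 12 genes lie, and the largest circle holds the 5 genes with 1 on calf in each breed.

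Of the 576 gene and calf pairs, 213 (37.0%) were on, 214 (37.2%) were off and 149 (25.9%) were in neither state. In the off pairs, 168 of 642 libraries (26.2%) had no count at all for the gene. The highest count in an off library was 10 and the lowest in an on library was 29. The lowest on library exceeded the highest off library of the same gene by 3.61 to 40.8 times (median 6.06), by over 10 times in 10 genes and by over 5 times in 21. For this ratio an off library with no count was set at 3 counts, and where that was the highest off value the ratio is a lower bound. CPM is not scaled to gene length, so levels are compared below between calves for 1 gene and not between genes.

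All 16 calves were classified for 8 genes, so that no calf held an intermediate level in these. ENSBTAG00000002290 had the widest gap. It was on in H-F calves 20, 33, 48 and 49, whose libraries had 12.1 to 35.9 CPM, and in 2 J calves, at 24.7, 27.2 and 26.5 CPM in J calf 7 and 28.6, 24.4 and 21.1 CPM in J calf 77 at d -14, d 1 and d 8. In the other 10 calves its libraries had at most 0.296 CPM, which was 9 counts, and 9 of 30 were at 0. The lowest on library was 40.8 times the highest off library. Among the on calves, H-F calf 49 (27.7, 28.8 and 35.9 CPM) and both on J calves were above H-F calves 20, 33 and 48 in every library, the latter 3 lying between 12.1 and 17.9 CPM.

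ENSBTAG00000011985 was on in 5 H-F calves and 6 J calves and, of the 8, varied least over the days within its on calves. The H-F on calves lay between 8.06 and 13.5 CPM. In J, calves 6, 13 and 85 had 9.29 to 11.8 CPM, calves 9 and 60 had 19.1 to 21.8 CPM, and calf 7 had 29.9, 31.1 and 28.7 CPM. The 3 ranges in J did not overlap, and each calf kept its own over the 3 days. The SD over days, pooled over the on calves, was 0.0827 on the log2 scale and the SD between on calves 0.586. No library of an off calf exceeded 0.212 CPM, and the off calves were 57 and 77 among the J and 20, 27 and 56 among the H-F calves.

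ENSBTAG00000038891 was on in 5 H-F and 4 J calves and off in the rest. H-F calf 32 had 7.19, 7.52 and 7.21 CPM, and the other on H-F calves (33, 48, 49 and 56) had 3.17 to 4.38 CPM. J calf 85 had 5.17, 8.68 and 7.53 CPM, while J calves 13, 57 and 60 had 3.20 to 4.82 CPM. No off library exceeded 0.0617 CPM and 13 of 21 were at 0, so that the lowest on library was at least 29.6 times higher.

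ENSBTAG00000046980 was on in 2 H-F calves and 7 J calves. H-F calf 20 had 4.22, 2.35 and 2.98 CPM and H-F calf 25 had 5.21, 4.13 and 2.52 CPM, and the on J calves had 2.04 to 6.63 CPM. J calf 13 was highest on every day, at 5.78, 5.87 and 6.63 CPM. No count was found in any library of J calf 6 or of H-F calves 32, 48, 49 and 56, and 18 of 21 off libraries were at 0 in all. The lowest on library was at least 19.3 times higher than the off libraries.

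ENSBTAG00000007397 was on in 4 H-F and 5 J calves, and was the gene with the largest differences among the calves that were on. H-F calf 56 had 1.84, 1.93 and 1.68 CPM, and J calf 77 had 13.4, 8.89 and 14.4 CPM. The calf medians therefore spanned 7.28-fold. J calf 13 had 4.66 and 5.38 CPM at d -14 and d 1 and 15.7 CPM at d 8. Off libraries had at most 0.111 CPM, 12 of 21 were at 0, and the lowest on library was 15.1 times the highest of them.

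ENSBTAG00000046305 was on in 5 H-F calves, at 1.42 to 3.16 CPM, and in 6 J calves, at 1.79 to 5.05 CPM. The off J calves were 57 and 85 and the off H-F calves 20, 27 and 33, with at most 0.112 CPM, and J calf 85 had no count in any library, so that the lowest on library was at least 12.4 times higher. ENSBTAG00000004092 was the most widely present of the 36. It was off only in H-F calf 20 (0.0555, 0.0714 and 0.119 CPM) and J calf 60 (0.249, 0.205 and 0.264 CPM), while the other 14 calves had 1.09 to 6.60 CPM.

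SLC29A4, the monoamine transporter, was on in 7 H-F calves and 1 J calf. The on H-F calves had 1.82 to 6.57 CPM, and H-F calf 33 was off, with 0.0630, 0.0823 and 0.0893 CPM. In J, calf 57 had 1.90, 2.97 and 1.98 CPM and the other 7 calves had at most 0.187 CPM. The breeds thus overlapped through 1 calf on each side.

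**Figure D2:**
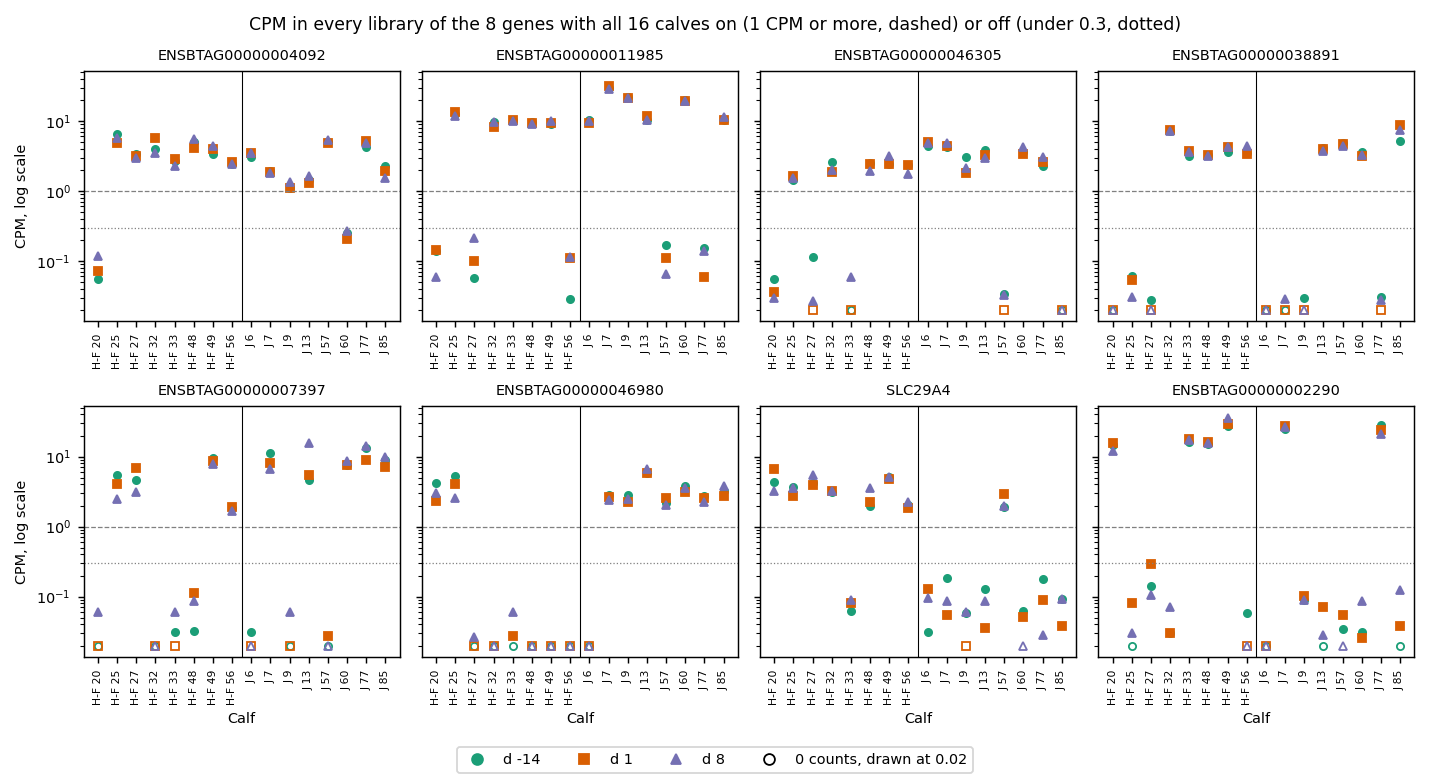
CPM (log scale) in each of the 48 libraries for the 8 genes in which every calf was on or off, by calf, with the 3 days as separate symbols, 0 counts drawn open at 0.02, the dashed line at 1 CPM, the dotted line at 0.3 CPM and a vertical line between H-F and J. Within every gene the 3 symbols of a calf lie together on 1 side, and the gap is widest for ENSBTAG00000002290 at 40.8 times.

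Gaps of over 10 times were also found in 4 genes in which some calves were in neither state, ENSBTAG00000008479 (10.2), ENSBTAG00000015835 (10.1), ENSBTAG00000038262 (10.7) and ENSBTAG00000011818 (at least 10.3). ENSBTAG00000008479 was on in 1 calf of each breed, H-F calf 48 with 3.15, 3.34 and 3.81 CPM and J calf 6 with 2.01, 2.46 and 2.91 CPM, and off in 12 calves. ENSBTAG00000015835 was on in H-F calf 48, at 1.67, 1.61 and 1.58 CPM, and higher in J calves 7, 77 and 85, at 3.14 to 5.08 CPM, with 8 of 24 off libraries at 0. ENSBTAG00000038262 was on in 4 calves of each breed, at 1.95 to 4.28 CPM, and all libraries of H-F calf 20 and J calf 13 had no count. ENSBTAG00000005941 was the only gene whose off calves (H-F 27, J 57 and J 85) had no count in any library. Its lowest on library was at least 9.09 times higher, and 7 further calves lay close to 1 CPM, from 0.774 to 1.25.

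EXTL1 and CD1A leaned to opposite breeds. EXTL1 was on in J calves 6, 7, 9, 13, 57, 60 and 77, at 1.42 to 4.73 CPM, and off in J calf 85, with 0.0615, 0.229 and 0.187 CPM. In H-F it was on in calf 33 alone, with 1.42, 1.34 and 1.10 CPM, off in calves 20 and 32, and in neither state in 5 calves, none of which exceeded 0.812 CPM. CD1A was on in 6 H-F calves, at 1.24 to 8.66 CPM, and off in H-F calf 48, at 0.193, 0.139 and 0.147 CPM. In J it was on in calf 85 alone, with 1.66, 1.38 and 1.47 CPM. J calves 6, 57 and 77 were off and the other 4 J calves lay between 0.615 and 2.19 CPM. EXTL1 and CD1A both met the rule in J only through calf 85, and EXTL1 met it in H-F only through calf 33 and CD1A only through calf 48.

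SLC38A11 was on in H-F calf 56, with 1.5, 1.13 and 1.34 CPM, and in J calves 7, 57 and 77, at 1.03 to 2.71 CPM. It was off in 4 H-F calves and in J calf 60. With a ratio of 3.73 between its lowest on and highest off library, it was among the genes with the narrowest gap.

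**Figure D3:**
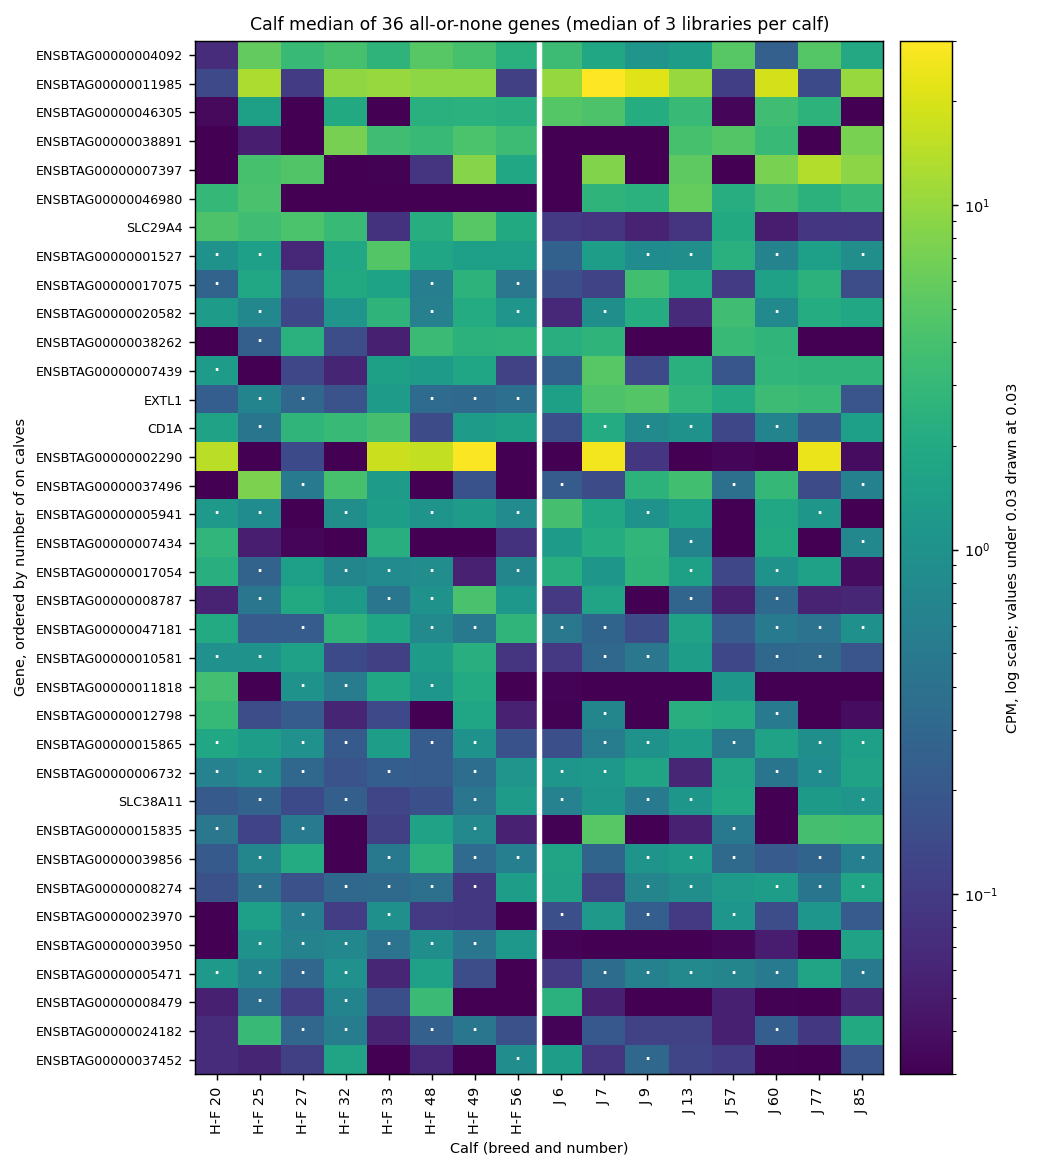
Median CPM of each calf over its 3 libraries (colour, log scale, values under 0.03 drawn at 0.03) for the 36 genes, ordered by number of on calves, with H-F calves left and J calves right of the white line and a white dot where a calf was in neither state. The 8 genes with no dot are those in which all 16 calves were classified.

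Of the 149 pairs in neither state, 49 had all 3 libraries from 0.3 to under 1 CPM, 54 had libraries on both sides of 1 CPM, and 46 on both sides of 0.3 CPM. None had 1 library at 1 CPM or more and another under 0.3. The same thresholds and libraries chose the genes and defined these pairs, so this is a description of the 36 genes and no measure of stability.

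The state was then read on a day that had no part in the choice. Genes and calves were chosen by the same rule on 2 days and the value was taken on the third. With d -14 left out, 52 genes met the rule, and 267 of 296 on calls (90.2%) were at 1 CPM or more and 255 of 275 off calls (92.73%) were under 0.3 CPM. With d 1 left out, 39 genes gave 223 of 234 on calls (95.3%) and 224 of 235 off calls (95.32%) on their side. With d 8 left out, 47 genes gave 258 of 280 on calls (92.14%) and 251 of 266 off calls (94.36%). Most exceptions lay between the thresholds. The value fell on the opposite side for 3 on calls and 1 off call at d -14, for none at d 1 and for 2 on calls at d 8, in genes outside the 36. The 36 genes belong to each of the 3 sets by construction, since a gene chosen on 3 days is also chosen on any 2, and a calf gives many calls, so the calls are not independent.

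**Figure D4:**
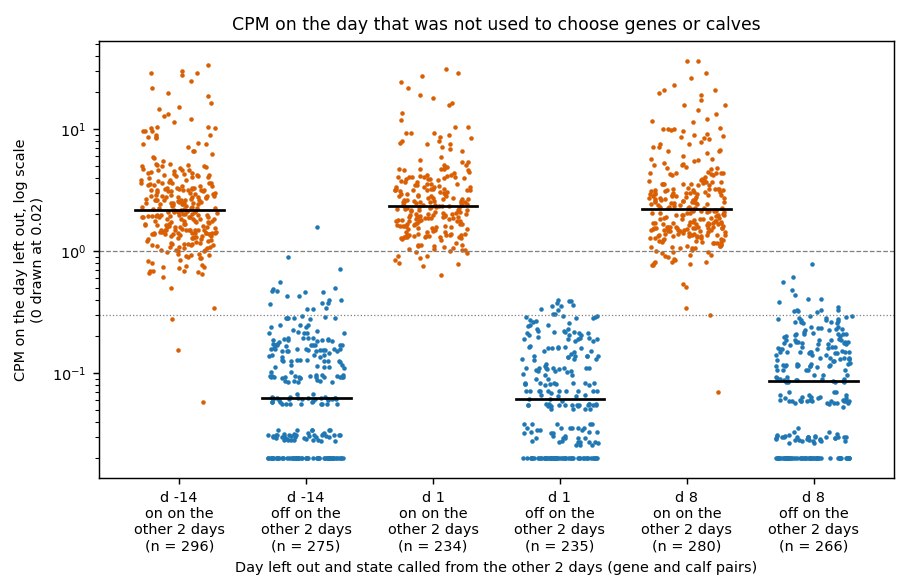
CPM (log scale, 0 drawn at 0.02) on the day left out, for gene and calf pairs called on or off from the other 2 days, with each dot a pair, black bars at the medians, the dashed line at 1 CPM and the dotted line at 0.3 CPM. The medians of on calls were 2.18, 2.36 and 2.22 CPM for d -14, d 1 and d 8, and those of off calls 0.0630, 0.0609 and 0.0855 CPM.

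The spread among on calves is given as a description, because an on calf needed 1 CPM or more in all 3 libraries, which cuts off low values within a calf. Over the 31 genes with 3 or more on calves, the median SD between calf means was 0.455 on the log2 scale and the median SD over the 3 days within a calf 0.252. For comparison, 3905 genes on in all 16 calves had medians of 0.227 between and 0.183 within calves. Their median level was 1.30 to 19.5 CPM, the range of the 36. Levels were matched by this range only, and 15 of the 36 had a median on level under 2 CPM. The SDs are therefore not compared at equal levels or equal numbers of calves. The SD between on calves exceeded that within calves in 30 of the 36 genes. The highest on calf median was under 2 times the lowest in 16 genes, 2 to 4 times in 17 and over 4 times in 3, ENSBTAG00000007397 (7.28), ENSBTAG00000037496 (5.54) and ENSBTAG00000004092 (5.21). In ENSBTAG00000037496, H-F calf 25 had 7.59, 7.74 and 7.58 CPM and H-F calf 33 had 1.26, 1.56 and 1.37 CPM, while all libraries of H-F calves 20 and 48 had no count.

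**Figure D5:**
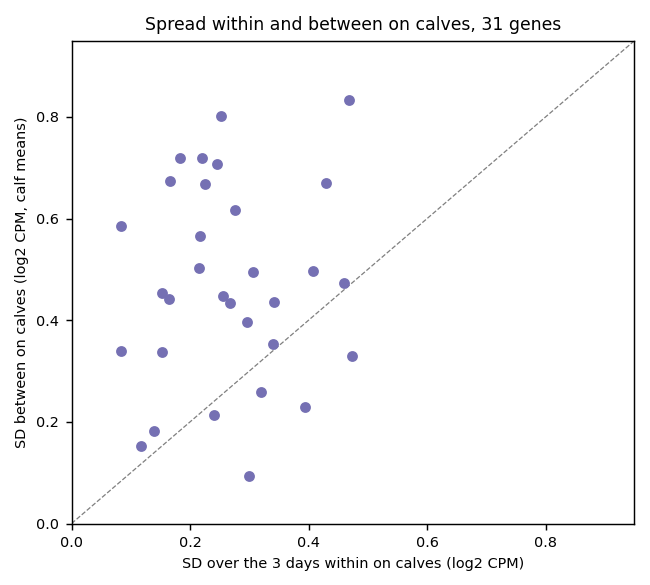
SD of log2 CPM over the 3 days within on calves (horizontal axis) against SD between the means of on calves (vertical axis) for the 31 genes with 3 or more on calves, with the dashed line marking equality. Most genes lie above the line, with medians of 0.252 within and 0.455 between calves.

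No calf was on or off throughout. Each H-F calf was on for 9 (calf 27) to 18 (calf 49) of the 36 genes and each J calf for 11 (calf 9) to 17 (calf 7). For a pair of calves, the share of genes with the same state, among those classified in both, had a median of 51.19% within H-F (25 to 76.19%), 56% within J (36 to 90.48%) and 50% between breeds (29.17 to 76.47%). J calves 13 and 60 shared the state of 19 of 21 genes, the highest share of any pair, and H-F calves 20 and 25 that of 4 of 16, the lowest.

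The genes likewise did not share 1 pattern over the calves. Among the 130 pairs of genes with 12 or more calves classified for both, no pair had the same state in every calf and none had the opposite state in every calf, and the median share of calves in the same state was 50%. The most alike were ENSBTAG00000008479 and ENSBTAG00000037452, which were in the same state in 11 of 12 calves, most of them off in both, followed by ENSBTAG00000002290 and ENSBTAG00000015835, with 10 of 12. The least alike were SLC29A4 and ENSBTAG00000007434, with 2 of 14 calves in the same state, ENSBTAG00000011818 and ENSBTAG00000046305 (2 of 13) and ENSBTAG00000002290 and ENSBTAG00000037496 (2 of 12). ENSBTAG00000007434 was on in H-F calves 20 and 33 at 2.05 to 4.38 CPM and off in the other 6 H-F calves, at 0.123 CPM or less.

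Cell type markers differed between calves as well. The calf median of the summed markers varied 2.80-fold for NK cells, 3.55-fold for the neutrophil marker, 3.29-fold for endothelial markers (CDH5 and VWF), 8.50-fold for platelets (71.9 to 611 CPM) and 9.94-fold for the eosinophil marker PRG3 (0.169 to 1.68 CPM). Some of these sums differed between the on and off calves of SLC29A4 and ENSBTAG00000046980. SLC29A4 was on in 7 H-F calves and 1 J calf, and ENSBTAG00000046980 in 2 H-F and 7 J calves. The medians of the same sums also differed between the breeds (PRG3 0.380 CPM in H-F and 0.788 CPM in J). State and breed therefore cannot be told apart in these values. The markers were matched through the study's lists of genes that differed between the breeds, which by itself favours a breed difference in the sums. In the 8 calves on for SLC29A4 the platelet sum had a median of 407 CPM (176 to 611), against 242 CPM (71.9 to 305) in the 8 off calves, and the endothelial sum 52.0 CPM (26.5 to 66.2) against 24.1 CPM (20.1 to 62.3). In the 9 calves on for ENSBTAG00000046980 the endothelial sum had a median of 26.5 CPM (20.1 to 60.6), against 50.3 CPM (24.7 to 66.2) in the 7 off calves, and PRG3 0.782 CPM (0.232 to 1.68) against 0.245 CPM (0.169 to 1.60). For the 8 fully classified genes the ranges of on and off calves overlapped for every list, but with as few as 2 calves in a state such an overlap says little. ENSBTAG00000011985 was on in 5 H-F and 6 J calves. Its on and off calves had median platelet sums of 252 and 271 CPM and endothelial sums of 43.4 and 40.5 CPM. For ENSBTAG00000038891, on in 5 H-F and 4 J calves, the NK cell sum had medians of 28.8 and 19.9 CPM. The part of cell make-up in the states was not tested.

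Breed differences were read at each day to ask whether all-or-none genes were among those that separate H-F from J. Of the 36 genes, 33 passed the filter of over 1 CPM in at least 8 libraries, and ENSBTAG00000008479, ENSBTAG00000024182 and ENSBTAG00000037452, each with 1 on calf per breed, did not. A gene was called by edgeR's quasi-likelihood test when its false discovery rate (FDR) was under 0.1 and it differed by 1.5-fold or more. On this footing, 4 of 33 differed between breeds at d -14 (1 higher and 3 lower in J), where 4.63% of all 12717 genes were called. At d 1 it was 6 of 33 (3 higher and 3 lower), against 5.98% of all genes, and at d 8 it was 3 of 33 (1 higher and 2 lower), against 4.16%. The rule required both states in each breed and thereby widened the spread within breeds, so the counts are a description beside these backgrounds. The spread was estimated over all 48 libraries without a calf term. The 3 libraries of a calf were thus treated as independent, and the FDRs and the SEs given below may be too low. With only the 2 groups compared, 1 library per calf, 3 of 15, 2 of 17 and 2 of 15 genes that passed the filter were called. Over all genes it was 550 of 12278, 550 of 12338 and 407 of 12325. The median log2 fold change, J against H-F, over the 33 genes was 0.10, 0.12 and 0.08 at the 3 days, against 0.00 over all genes tested at each. Without J calf 85, 4, 3 and 2 of 32 genes were called, against 520, 473 and 397 of all 12677. The count also moved by over 1.5 times without H-F calf 56 (8 of 32 at d -14 and 7 of 32 at d 8), without H-F calf 49, J calf 9 or J calf 57 (3 at d 1), and at d 8 without H-F calf 27 or J calf 7 (5) and without J calf 13 (6). Over all genes, 652 and 595 were then called without H-F calf 56. At d 1 it was 712, 536 and 711 without H-F calf 49, J calf 9 and J calf 57. At d 8 it was 627, 529 and 508 without H-F calf 27, J calf 7 and J calf 13.

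EXTL1 was higher in J on all 3 days. The medians of 8 calves were 0.240 CPM in H-F (0.0918 to 1.42) and 3.15 CPM in J (0.0615 to 4.73) at d -14, and the log2 fold change was 2.77 ± 0.56 (SE, FDR = 0.00164, edgeR). It was 2.43 ± 0.55 at d 1 (FDR = 0.00333, edgeR) and 2.43 ± 0.55 at d 8 (FDR = 0.00471, edgeR). The ranges overlapped because H-F calf 33 was on and J calf 85 off, and without J calf 85 the log2 fold change was 2.96, 2.60 and 2.61.

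SLC29A4 was lower in J on all 3 days. At d -14 the median was 3.38 CPM in H-F (0.0630 to 5.05) and 0.110 CPM in J (0.0314 to 1.90), a log2 fold change of -3.29 ± 0.87 (FDR = 0.0117, edgeR). The values were -2.89 ± 0.84 at d 1 (FDR = 0.0154, edgeR) and -3.52 ± 0.88 at d 8 (FDR = 0.00990, edgeR). Both genes kept their call at each day under all alternatives tried. Marker sums also differed between the breeds, with calf medians of the platelet sum at 244 to 611 CPM in H-F (median 407) and 71.9 to 305 CPM in J (median 221), and of the endothelial sum at 24.7 to 66.2 CPM (median 52.0) and 20.1 to 62.3 CPM (median 24.9). The markers were matched through the study's lists of genes that differed between the breeds, so the differences in these sums are no separate result. The platelet sum was higher in the calves on for SLC29A4, and its part in the breed difference of that gene was not tested.

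ENSBTAG00000011818 was also called lower in J on all 3 days, with log2 fold changes of -3.33 ± 1.10 (FDR = 0.0415, edgeR), -2.93 ± 1.09 (FDR = 0.0482, edgeR) and -3.06 ± 1.09 (FDR = 0.0591, edgeR). In J it was on in calf 57 alone, with 1.15, 1.09 and 1.35 CPM, and the other 7 J calves had at most 0.0942 CPM. In H-F it was on in calves 20, 33 and 49, at 1.31 to 4.52 CPM, and off in calves 25 and 56. The call was lost with DESeq2 at each day (FDR = 0.127, 0.114 and 0.152, the highest of all alternatives, of which the lowest were 0.00191, 0.00268 and 0.00155). At d 8 it was also lost without H-F calf 20 (log2 fold change -2.62, FDR = 0.127, edgeR), without J calf 85 (-2.87, FDR = 0.109, edgeR) and with the exact test.

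The remaining calls fell at 1 day each. CD1A was lower in J at d -14 (log2 fold change -1.74 ± 0.62, FDR = 0.0604, edgeR) and the call was lost without H-F calf 33, which had 8.66 CPM that day (-1.31, FDR = 0.197, edgeR), or without J calf 13, 57 or 77 (FDR over all alternatives 0.0262 to 0.197). At d 1 SLC38A11 (1.38 ± 0.59, FDR = 0.0854, edgeR) and ENSBTAG00000006732 (1.22 ± 0.53, FDR = 0.0871, edgeR) were higher in J and ENSBTAG00000008787 (-2.09 ± 0.82, FDR = 0.0614, edgeR) lower. All 3 calls at d 1 were lost without J calf 85 (FDR = 0.156, 0.188 and 0.129, edgeR) and without J calf 9 or 57, and over all alternatives their FDR reached 0.168, 0.280 and 0.168. Leaving out H-F calf 49 ended them as well, and the calls of SLC38A11 and ENSBTAG00000006732 were lost under most other left-out H-F calves. Their log2 fold changes at d -14 and d 8 had the same sign but missed the threshold.

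The days around weaning were compared within each breed, from d -14 to d 1 and to d 8. Every calf was weaned, so weaning, age and day of sampling cannot be told apart in these differences. Since the rule held classified calves on 1 side over the days, nothing is read from the number of genes called here. In the edgeR test without a calf term, none of the 33 genes was called in any of the 4 comparisons, and none had an unadjusted p under 0.05. The same test called 0% of all genes at d 1 and 0.0393% at d 8 in H-F, and 0% at both days in J. The exact test and DESeq2, also without a calf term, called none of the 33. Of all 12717 genes at d 1 and d 8 in H-F and then in J, the exact test called 1, 20, 0 and 7. DESeq2 called 1, 20, 0 and 5.

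The 3 libraries of a calf moved together, so the test with calf as a block is given beside this. It called 1 of the 33 genes at d 1 in H-F, where 0.244% of all genes were called, 3 at d 8 in H-F (1.08% of all genes), 1 at d 1 in J (0.566%) and none at d 8 in J (0.33%). CD1A was lower at d 1 and d 8 in H-F, with log2 fold changes of -0.72 (FDR = 0.00872, edgeR with block) and -0.79 (FDR = 0.000590, edgeR with block). In all 6 on H-F calves CD1A was highest at d -14, as in H-F calf 33, with 8.66, 3.87 and 3.24 CPM. ENSBTAG00000015865 was higher at d 8 in H-F (0.63, FDR = 0.0784, edgeR with block) and at d 1 in J (0.66, FDR = 0.0950, edgeR with block), and ENSBTAG00000046980 was lower at d 8 in H-F (-0.65, FDR = 0.0847, edgeR with block). With limma-voom, in which calf is a random effect, none of the 33 was called in any of the 4 comparisons. Over all 12717 genes limma-voom called 22 and 140 at d 1 and d 8 in H-F, and 10 and 29 in J. There CD1A had log2 fold changes of -0.72 (FDR = 0.382, limma) and -0.77 (FDR = 0.162, limma), ENSBTAG00000015865 of 0.84 at d 8 in H-F (FDR = 0.164, limma) and 0.52 at d 1 in J (FDR = 0.370, limma), and the direction of ENSBTAG00000046980 turned, to 0.29 (FDR = 0.917, limma). H-F calves 20 and 25 were the only on calves of that breed for ENSBTAG00000046980. For ENSBTAG00000015865, J calf 85 had 0.769, 2.29 and 1.5 CPM and H-F calf 20 had 0.693, 1.85 and 1.85 CPM, both in neither state.

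Several genes sat close to the thresholds. Just inside were ENSBTAG00000003950 and ENSBTAG00000006732, which met the rule through an on calf whose lowest library had 1.009 CPM, ENSBTAG00000010581 (1.028 CPM) and ENSBTAG00000001527, with an off calf reaching 0.2913 CPM. Just outside were ENSBTAG00000007333, whose on calf reached 0.9898 CPM, ENSBTAG00000046995 (0.9712 CPM) and ENSBTAG00000045630, whose off calf reached 0.3058 CPM.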

How the data were processed

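The authors prepared mRNA (TruSeq) libraries from whole-blood RNA, checked reads with FastQC (0.10.0), aligned them to the bovine genome UMD3.1 with STAR, kept reads that aligned to 1 place with few mismatches, and deposited HTSeq read counts per Ensembl gene (STAR and HTSeq versions not given in the sources used here). Reads dropped by those filters are missing from the counts, so an off state is a lack of counted reads and was not shown to be a lack of RNA. All 48 columns were matched to samples by their titles, with 0 left over, and 92 spike-in sequences were left out. The members and lists were chosen with earlier results of these data known.

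All 48 libraries of all 16 calves were fitted with edgeR (4.0.16), with 6 group means, no calf term and TMM factors. Genes needed over 1 CPM in at least 8 libraries, and the Benjamini-Hochberg FDR was taken over 12717 genes. The SE was the absolute log2 fold change divided by the square root of the F statistic of the quasi-likelihood test. The study left out 1 J calf that was not named. Numbers mark the calf: its libraries deviated together from their group means (r 0.41 to 0.90 over 48 pairs, against -0.67 to 0.46 over 504 pairs of different calves of 1 breed). Alternatives were the exact test of edgeR, limma-voom (3.58.1, calf as a random effect), DESeq2 (1.42.0), RLE factors, other filters and thresholds, and each calf left out. The fits were tested on simulated counts with independent libraries and no calf effect. That test does not bear on the correlation of libraries within a calf.

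Named genes had 1 of the 10 highest on levels or widest gaps, all 16 calves classified, or a breed call on all 3 days; others were chosen after their values were seen. Symbols came from gene lists of the study, and gene families and neighbouring genes could not be looked up. The results of 1 marker list are not reported here. R 4.3.3 and Python 3.11.15 were used.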

Additional observations from a re-analysis of the deposited data

Results flagged for a closer look

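Among 28 groups of 4 to 7 on calves of 1 breed, 7 had 1 calf far from the others in median CPM. Dixon's 95% critical value was the limit, which is set to flag about 1 in 20 groups of independent, normally distributed values. The rule cut on calves off below 1 CPM and the same 16 calves recur across groups, so no excess over chance is read. None of 12 groups of library totals or of genes per state and calf had such a calf. In H-F these were calf 33 in ENSBTAG00000001527 (4.663 CPM), calf 48 in ENSBTAG00000038262 (3.312 CPM) and calf 32 in ENSBTAG00000038891 (7.206 CPM). In J they were calf 6 in ENSBTAG00000005941 (3.861 CPM), calf 7 in ENSBTAG00000007439 (4.957 CPM), calf 57 in ENSBTAG00000020582 (3.564 CPM) and calf 13 in ENSBTAG00000046980 (5.874 CPM). Each was the highest on calf of its breed. No cause was tested.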

How the results depend on the processing

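The number of genes that met the rule depended on the thresholds: 16 with off under 0.1 CPM, 59 with off under 0.5 CPM, 12 with on at 2 CPM or more and 88 with on at 0.5 CPM or more. It was 37 with TMM library sizes and 36 with spike-ins included, and 29 to 36 with 1 calf left out. With 1 calf left out, the off calls that held at d -14 ranged from 91.88% to 96.38%. With limma-voom, 8 of 33 genes were called between breeds at d -14 and 7 at d 8, against 649 and 533 of all 12717. At d 1, 3 of 33 were called at an FDR of 5%, against 640 of 12717. With only the groups compared, 17 of the 36 passed the filter at d 1 and 2 were called, against 550 of 12338. With 1 calf left out, the genes called between breeds ranged from 3 to 8, 3 to 7 and 2 to 7 at d -14, d 1 and d 8. Over all genes the calls then ranged from 441 to 668, 473 to 939 and 397 to 650. With calf as a replicate block, 1, 3 and 1 genes were called at d 1 and d 8 in H-F and d 1 in J, against 0 without the block and 0 with limma-voom (calf as a random effect), and the block left the count at d 8 in J at 0. The calls over all genes in these tests are given with the weaning comparisons above. The biological coefficient of variation was 0.106 with the block and 0.197 without. The difference of ENSBTAG00000046980 from d -14 to d 8 in H-F turned to 0.29 with limma-voom. The cause was not tested. Off libraries held at most 10 counts, and a library with 0 counts allows up to 3 counts (0.0769 to 0.115 CPM), which covers counting error only.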
